A study of Bos taurus with 9 samples.

Results

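The genes that write and erase DNA methylation were followed in single bovine blastocysts collected on day 8 (D8) after in vitro fertilization. They are 10 genes chosen by symbol, and all 10 were found among the 21512 genes of the deposited table. They are *DNMT1* and *UHRF1* for maintenance, *DNMT3A*, *DNMT3B* and *DNMT3L* for de novo methylation, *TET1*, *TET2*, *TET3* and *TDG* for demethylation, and *TRIM28*, which protects imprints. Each of the 9 libraries came from 1 whole blastocyst, holding both inner cell mass and trophectoderm (TE). The 5 wild-type (WT) embryos grew from oocytes injected with *Cas9* mRNA alone. The 4 *TEAD4* knockout (KO) embryos, genotype TEAD4-/-, grew from oocytes injected with *Cas9* mRNA and a guide against *TEAD4*, and carried only alleles with frame-disrupting indels, which this method generates at random. All embryos shared in vitro maturation, semen of 1 bull and culture in synthetic oviduct fluid. Library names are those of the table, WT_1 to WT_5 for WT, and TE_1 to TE_4 for the *TEAD4* KO embryos. Values are in TPM, an abundance unit corrected for transcript length, so that levels can be compared between genes. Read numbers are not kept in it, and the counting error of low values is unknown. Values listed per embryo follow the order of the library numbers.

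*TEAD4* transcripts were found at 18.0 to 54.3 TPM in WT libraries and 12.5 to 42.8 TPM in KO libraries, and TPM does not show whether a transcript carries an indel. The libraries were checked against markers of the expected cell types. All 6 TE, all 5 inner cell mass and all 5 hypoblast markers looked up passed detection. Detection is a median above 0.1 TPM over the 9 libraries, which does not show that each embryo held every cell type. *HNF4A* was the only one of these markers listed at 0, in WT_1 and TE_3. *NANOG*, *SOX2*, *PRDM14* and *PDGFRA* were lowest among WT embryos in WT_1, at 0.127, 3.89, 2.86 and 0.0277 TPM. In TE_3, *SOX2*, *NANOG* and *PRDM14* were at 2.26, 3.55 and 4.27 TPM. *POU5F1* and *GATA6* were at 773 and 77.6 TPM in WT_1 and at 1352 and 40.6 TPM in TE_3. Transcripts of cumulus cells, which surround the oocyte, summed to 19.9 to 37.5 TPM over 8 markers in WT and to 4.66 to 31.6 TPM in KO libraries. *PTX3*, *HAS2* and *TNFAIP6* were listed at 0 in some libraries. Most of the sum is *FSHR* (17.3 TPM on average) and *STAR* (6.31 TPM), and *FSHR* was at 1.36 TPM in TE_4, which had the lowest sum. A level measured in a whole blastocyst cannot tell fewer cells of a type apart from less RNA per cell.

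DNA methylation is copied at each replication by DNMT1, which UHRF1 guides to the half-methylated sites behind the replication fork. DNMT3A and DNMT3B place new marks, and DNMT3L, which has no catalytic activity, helps them. The TET enzymes oxidize 5-methylcytosine, and the glycosylase TDG cuts out the oxidized bases so that repair restores cytosine. The mammalian embryo loses much of the methylation inherited from the gametes during cleavage and gains it again around and after the blastocyst stage. Imprinted regions keep theirs, with the help of TRIM28, a scaffold that zinc finger proteins such as ZFP57 bring to DNA.

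The level of these genes differed far more between genes than between genotypes. On the mean TPM of the 9 libraries, *DNMT3A* (149 TPM) and *TRIM28* (87.2 TPM) stood at the top. They were followed by *DNMT3B* (15.2 TPM), *TDG* (11.7 TPM) and *TET1* (9.65 TPM), then by *UHRF1* (2.59 TPM) and *DNMT1* (2.18 TPM). *TET2* (0.300 TPM), *DNMT3L* (0.227 TPM) and *TET3* (0.166 TPM) were the lowest. Of the 14599 genes with a median above 0.1 TPM over the 9 libraries, which are called detected here, 8.01% had a higher mean than *DNMT3A* and 68.3% had a higher mean than *DNMT1*. The steps from *TRIM28* to *DNMT3B* and from *DNMT1* to *TET2* were found within 9 of 9 embryos, and that from *TET1* to *UHRF1* within 8. Other neighbours in this order changed places between embryos: *DNMT3A* was above *TRIM28*, *DNMT3B* above *TDG* and *TDG* above *TET1* in 6 embryos each, *UHRF1* was above *DNMT1* in 7, *TET2* above *DNMT3L* in 5 and *DNMT3L* above *TET3* in 6.

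**Figure D1:**
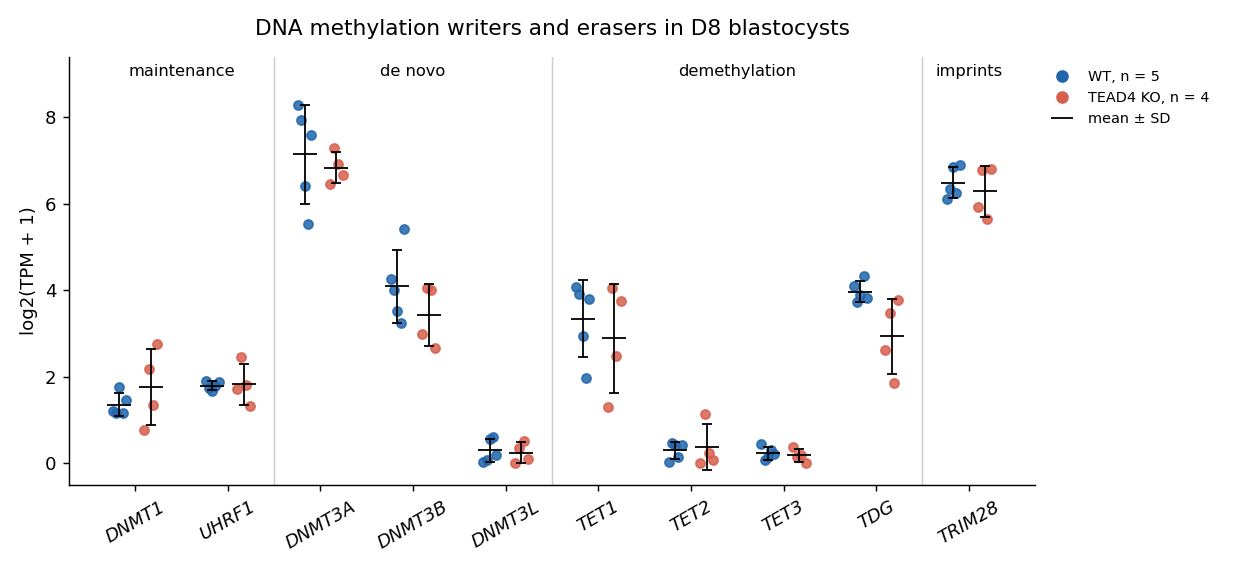
Level of each of the 10 genes as log2(TPM + 1) (vertical axis), 1 point per blastocyst, with WT embryos in blue and *TEAD4* KO embryos in red and black bars for the mean ± SD of each genotype. *DNMT3A* and *TRIM28* are the highest, *DNMT3L*, *TET2* and *TET3* stay close to 0, and in each gene the points of the genotypes overlap.

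WT and KO embryos were compared with limma, a linear model fitted to log2(TPM + 1) of all 14599 detected genes, with Benjamini-Hochberg adjustment over all of them. None of the 10 genes passed an adjusted p-value of 0.05 with an absolute log2 fold change above 1, where 3 of all genes tested did (0.0205%, of which 0.0137% were higher and 0.00685% lower in KO). At an unadjusted p under 0.05 stood 1 of the 10, *TDG*, lower in KO, against 5.90% of all genes (2.07% higher and 3.83% lower in KO). In 0 of the 10 were the genotypes fully separated, against 2.03% of all genes. Mean log2(TPM + 1) was lower in KO for 7 of the 10 genes, with a median log2 fold change of −0.12, beside 55.8% of all genes tested and a median of −0.046. That number was 5 after quantile normalization or without TE_1, 8 with a pseudocount of 0.1 TPM or array weights, and 9 without TE_2. Log2 fold changes are KO minus WT on the log2(TPM + 1) scale, which understates the change of genes near or under 1 TPM. A second test of single genes was the exact permutation test (two-sided) over the 126 ways to divide 9 embryos into groups of 5 and 4. It cannot give a p below 0.0159.

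**Figure D2:**
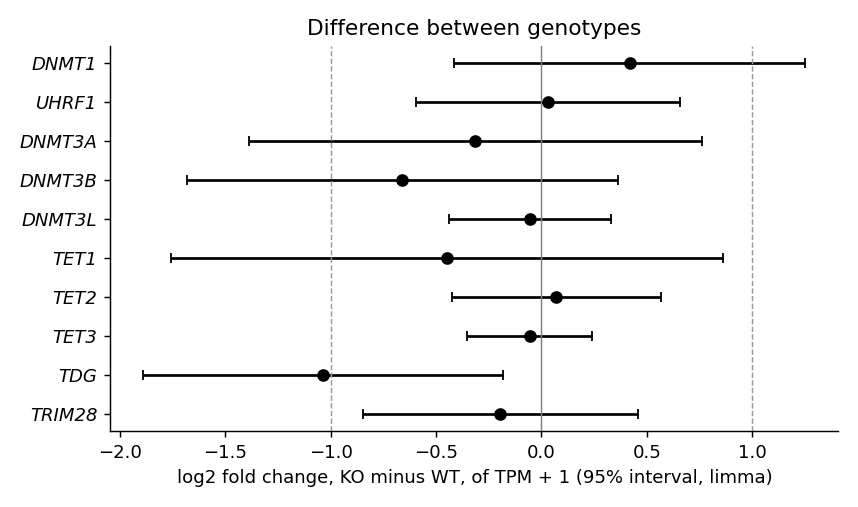
Log2 fold change of TPM + 1 between *TEAD4* KO and WT blastocysts (horizontal axis) for each gene, with the 95% interval from limma, and dashed lines at a log2 fold change of −1 and 1. The interval of *TDG* lies below 0, from −1.89 to −0.18, while those of the other 9 genes include 0.

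Among the maintenance genes, *DNMT1* was at 1.33, 1.24, 2.42, 1.23 and 1.75 TPM among WT embryos while KO embryos had 0.723, 3.57, 1.56 and 5.79 TPM. The KO embryos thus held the lowest value and the 2 highest. WT embryos averaged 1.59 ± 0.509 TPM (SD, n = 5) and KO embryos 2.91 ± 2.26 TPM (SD, n = 4), for a log2 fold change of 0.42 with standard error 0.38 (limma, adjusted p = 0.956). It was 0.091 without TE_4 and 0.75 without TE_1. The table gives 1 value per gene, so the isoforms of *DNMT1* are not told apart. *UHRF1* was the most even of the 10 genes in WT, at 2.78, 2.36, 2.19, 2.44 and 2.66 TPM, where the highest value was 1.27 times the lowest. In KO it was at 2.28, 4.52, 2.53 and 1.51 TPM, with 1 embryo below and 1 above all WT embryos. The difference in *UHRF1* had a log2 fold change of 0.032 (95% interval −0.60 to 0.66, adjusted p = 0.994 from limma), which was −0.18 without TE_2 and −0.0061 with array weights in limma.

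Since maintenance methylation follows replication, S phase markers were looked up. The 15 S phase markers looked up, such as the MCM helicase genes, summed to 1045 to 1174 TPM in WT. In KO the sum was 705 TPM in TE_1, 761 TPM in TE_3, 1480 TPM in TE_2 and 1690 TPM in TE_4, so that 2 embryos were below and 2 above all WT embryos. *DNMT1* was highest in TE_4 and TE_2, which also had the highest sums of S phase markers. Over the 9 embryos the Pearson's r of *DNMT1* with the sum was 0.826 and Spearman's rho 0.600 (exact permutation tests, p = 0.00709 and 0.0968, adjusted over 60 relations p = 0.213 and 0.592), and r was 0.558 without TE_1 and TE_4, the embryos farthest from the median sum. Within genotypes, without a test, r was −0.035 in WT and 0.968 in KO, so that the relation was seen among the KO embryos alone. For *UHRF1*, r was 0.017 and rho −0.150 (exact permutation tests, adjusted over 60 relations p = 0.992 and 0.904), and TE_4, with the highest sum, had the lowest *UHRF1*. The part of S phase in the level of *DNMT1* was not tested further.

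The de novo class was carried by *DNMT3A*. It was at 309, 245, 83.7, 45.3 and 191 TPM among WT embryos, a 6.83-fold range, while KO embryos had 87.0, 156, 120 and 101 TPM. All KO embryos lay within the range of the WT embryos. WT embryos averaged 175 ± 110 TPM (SD, n = 5) and KO embryos 116 ± 29.8 TPM (SD, n = 4), for a log2 fold change of −0.31 with standard error 0.49 (limma, adjusted p = 0.982), which was −0.031 without WT_1 and −0.72 without WT_4. *DNMT3B* was at 18.1, 15.1, 10.4, 8.46 and 42.1 TPM in WT and at 7.01, 15.6, 15.1 and 5.31 TPM in KO. WT_5 stood well above the other embryos, and TE_1 and TE_4 were below all WT embryos. The average of *DNMT3B* was 18.8 ± 13.5 TPM (SD, n = 5) for WT embryos and 10.8 ± 5.36 TPM (SD, n = 4) for KO embryos, with a log2 fold change of −0.66 with standard error 0.47 (limma, adjusted p = 0.929; exact permutation test, two-sided, p = 0.238). It was −0.33 without WT_5, and −1.23 with array weights. *DNMT3A* exceeded *DNMT3B* in each embryo, by 4.54 to 17.1 times in WT and by 7.98 to 19.0 times in KO. *DNMT3L* was at 0.0307 to 0.527 TPM in WT, listed at 0 in TE_1 and at 0.0685 to 0.444 TPM in the other KO embryos.

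The range of *DNMT3A* between embryos went along with that of TE markers. Summed over *CDX2*, *GATA2*, *GATA3*, *KRT8*, *KRT18* and *TFAP2A*, these were at 17769.5, 13914, 7409, 3900 and 13995 TPM among WT embryos while KO embryos had 9239, 12167, 6700 and 6428 TPM. WT_1 had the highest and WT_4 the lowest value of both the marker sum and *DNMT3A*. On the log2 scale, Pearson's r over the 9 embryos was 0.932 and Spearman's rho 0.850 (exact permutation tests, p = 0.000537 and 0.00607, adjusted over 60 relations p = 0.0322 and 0.258). Pearson's r was thus the only one of the 60 relations between the 10 genes and 6 marker lists to pass adjustment, and rho did not. Without WT_1 and WT_4, the embryos farthest from the median sum, r was 0.817. The keratin genes *KRT8* (6696 TPM on average) and *KRT18* (3333 TPM) make up most of the sum, and without them r was 0.683 (exact permutation test, p = 0.0432). Within genotypes, r was 0.988 in WT and 0.491 in KO, given without a test for groups under 6 embryos. With the sum of all 6 TE markers, *DNMT3B* had r = 0.640 and rho = 0.817 and *TET1* r = 0.634 and rho = 0.717. *DNMT3L* went the other way, with r = −0.649 and rho = −0.583. Adjusted over 60 relations, p was 0.314 for each of these r and at least 0.258 for rho (exact permutation tests). For *TET1*, r was 0.997 in WT and 0.130 in KO, without a test. With the markers *SOX2*, *NANOG*, *POU5F1*, *LIN28A* and *PRDM14* of the inner cell mass, *DNMT3A* had r = −0.774 and rho = −0.700 (exact permutation tests, adjusted over 60 relations p = 0.222 and 0.433), and r was −0.437 without WT_1 and WT_2. Most of that sum is *POU5F1* (1413 TPM on average), so this is mainly a relation with 1 gene. The paper states that bovine embryos lack the mouse pattern in which POU5F1 and CDX2 exclude each other. The sum is therefore not a measure of the inner cell mass alone. These relations were computed after the values had been seen, and the part of the share of TE cells in them was not tested.

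**Figure D3:**
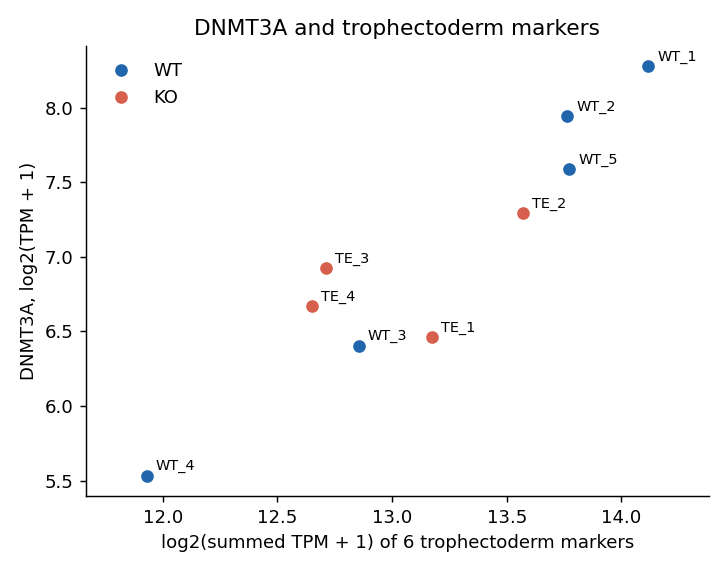
*DNMT3A* as log2(TPM + 1) (vertical axis) against log2 of the summed TPM + 1 of 6 TE markers (horizontal axis), 1 labelled point per blastocyst, with WT in blue and KO in red. WT_1, WT_2, WT_5 and TE_2 are highest on both axes and WT_4 is lowest on both (Pearson's r = 0.932, n = 9).

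Among the demethylating genes, *TDG* showed the largest difference relative to its error. It was at 16.1, 12.3, 13.8, 19.0 and 13.1 TPM among WT embryos while KO embryos had 5.12, 10.2, 2.64 and 12.8 TPM. TE_1, TE_2 and TE_3 were below all WT embryos, and TE_4 was above WT_2 alone. WT embryos averaged 14.9 ± 2.73 TPM (SD, n = 5) and KO embryos 7.69 ± 4.64 TPM (SD, n = 4). The log2 fold change of −1.03 (standard error 0.39) had an unadjusted p of 0.0217 and an adjusted p of 0.758 from limma over all genes (exact permutation test, two-sided, unadjusted p = 0.0317). The difference did not hold after adjustment in any of the fits run. It was −0.68 without TE_3, where the unadjusted p of limma was 0.0732, and −0.93 without TE_1, where it was 0.0539. TE_3 and TE_1, the lowest embryos for *TDG*, also had the lowest sums of S phase markers and the lowest sums of hypoblast markers, 55.8 and 45.4 TPM against 81.6 to 152 TPM in WT. The hypoblast sum is mostly *GATA6* (78.8 TPM on average), and *SOX17* went the other way among KO embryos, with 6.08 and 11.5 TPM in TE_1 and TE_3 against 1.91 and 2.52 TPM in TE_2 and TE_4. The part of these differences in the level of *TDG* was not tested.

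*TET1* made up 82.6% to 99.4% of the summed TPM of the 3 TET genes in each embryo. It was at 15.9, 14.1, 6.72, 2.93 and 13.03 TPM among WT embryos while KO embryos had 1.48, 15.7, 4.57 and 12.4 TPM. The values formed a higher and a lower range in both genotypes, with WT_3, WT_4, TE_1 and TE_3 in the lower. The average of *TET1* was 10.5 ± 5.48 TPM (SD, n = 5) for WT embryos and 8.53 ± 6.62 TPM (SD, n = 4) for KO embryos, with a log2 fold change of −0.45 with standard error 0.60 (limma, adjusted p = 0.982), which became 0.081 without TE_1. *TET2* ranged over 0.0311 to 0.386 TPM in WT and over 0.00690 to 1.22 TPM in KO, where TE_2 was the highest. *TET3*, the TET enzyme known for acting in the zygote, ranged over 0.0582 to 0.372 TPM in WT and over 0.00626 to 0.305 TPM in KO. At these levels the pseudocount of 1 TPM sets most of the value, and the sign of the difference of *TET2*, *TET3* and *DNMT3L*, counted with the other genes above, changed between alternatives.

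*TRIM28* was at 68.0, 79.9, 114, 75.2 and 118 TPM among WT embryos while KO embryos had 60.3, 109, 49.3 and 111 TPM. TE_1 and TE_3 were below all WT embryos, and TE_2 and TE_4 were within the upper part of their range. WT embryos averaged 91.0 ± 23.3 TPM (SD, n = 5) and KO embryos 82.3 ± 32.1 TPM (SD, n = 4), for a log2 fold change of −0.19 (95% interval −0.85 to 0.46, adjusted p = 0.982 from limma), which became 0.020 without TE_3.

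To describe the balance of the classes, TPM was summed per embryo over *DNMT1* and *UHRF1* (maintenance), over *DNMT3A*, *DNMT3B* and *DNMT3L* (de novo) and over *TET1*, *TET2*, *TET3* and *TDG* (demethylation). These sums describe transcripts, not enzyme activity, and no test is given for them because they are scores over chosen genes. The de novo class held 90.0%, 89.5%, 78.7%, 67.6% and 88.3% of the total of the 3 classes in WT_1 to WT_5 and 90.5%, 82.9%, 92.1% and 76.5% in TE_1 to TE_4. It was therefore the largest class in each of the 9 embryos, with overlapping values in WT and KO. The demethylating class held 8.91% to 27.8% in WT and 5.11% to 18.2% in KO, and the maintenance class 1.13% to 4.58% in WT and 2.78% to 5.26% in KO. *DNMT3A* alone made up 81.9% to 94.9% of the de novo sum, and *TDG* 35.0% to 85.3% of the demethylating sum.

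**Figure D4:**
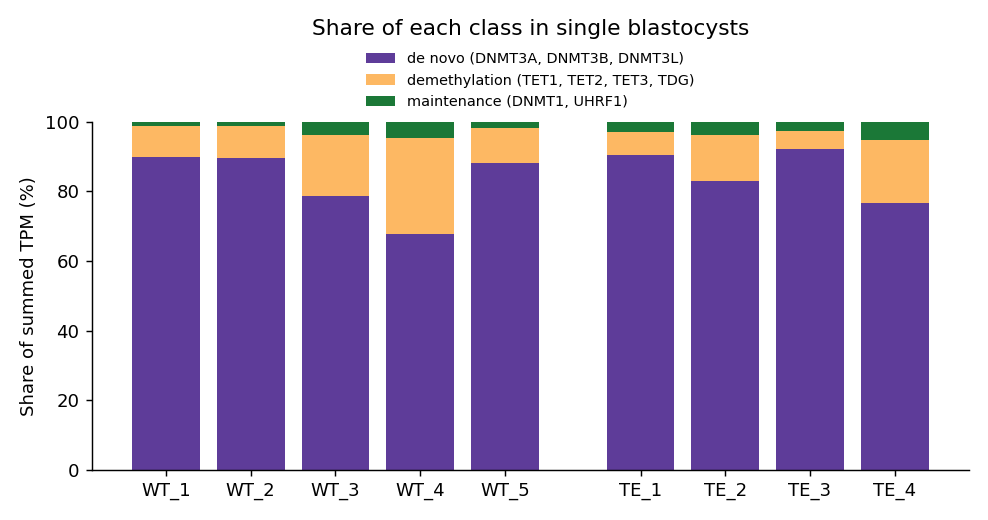
Share of the summed TPM of the 3 classes (vertical axis, percent) in each blastocyst (horizontal axis), with de novo genes in purple, demethylating genes in light orange and maintenance genes in green. The de novo genes take between 67.6% (WT_4) and 92.1% (TE_3) of the total.

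The genotypes separated in the ratio of demethylating to maintenance transcripts. Its log2 was 2.98, 2.90, 2.18, 2.60 and 2.59 in WT_1 to WT_5 and 1.20, 1.75, 0.88 and 1.79 in TE_1 to TE_4, so that each KO embryo was below each WT embryo. WT embryos averaged 2.65 ± 0.31 (SD, n = 5) and KO embryos 1.41 ± 0.44 (SD, n = 4), which is −1.25 for KO minus WT in log2. This was the only one of 15 sums, shares and ratios computed on these classes in which the genotypes did not overlap, as they did not in 2.03% of single genes. The 15 measures are built on the same genes, and no such share was computed for ratios of sums of other genes. With any 1 embryo left out the difference was between −1.37 and −1.07. Leaving out an embryo cannot make separated groups overlap, because each ratio comes from 1 embryo alone. The separation was kept with means of log2(TPM + 1) in place of sums, where the difference was −0.59. It was lost in the remaining alternatives. With *DNMT1* alone as maintenance the values were 3.11 to 4.61 in WT and 2.12 to 3.26 in KO, and with *TDG* left out of demethylation they were −0.17 to 2.02 and −0.75 to 1.07. The KO embryos did not share the class that set this ratio apart. In TE_1 and TE_3 the demethylating sum was 6.90 and 7.54 TPM, below the 21.0 to 32.4 TPM of WT, while in TE_2 and TE_4 the maintenance sum was 8.09 and 7.30 TPM, above the 3.60 to 4.62 TPM of WT. In TE_2 both *DNMT1* (3.57 TPM) and *UHRF1* (4.52 TPM) were above all WT embryos. In TE_4 only *DNMT1* was (5.79 TPM), and *UHRF1* (1.51 TPM) was below all WT embryos. TE_1 and TE_3 were also the KO embryos with the low sums of S phase markers and TE_2 and TE_4 those with the high sums, and the part of this in the ratio was not tested. The libraries also differed as a whole. Median-of-ratios size factors were 0.776 in TE_1 and 1.26 in TE_2, and 0.966 to 1.12 in the others, and 14776 to 15375 genes were above 0 in KO libraries against 14807 to 16678 in WT. A size factor scales all genes of a library alike, so it leaves the ratio of 2 sums within an embryo unchanged. In the limma fit with size factors, the log2 fold change was −0.99 for *TDG* and 0.43 for *DNMT1*. The part of the number of genes above 0 in the ratio and in the levels of single genes was not tested.

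**Figure D5:**
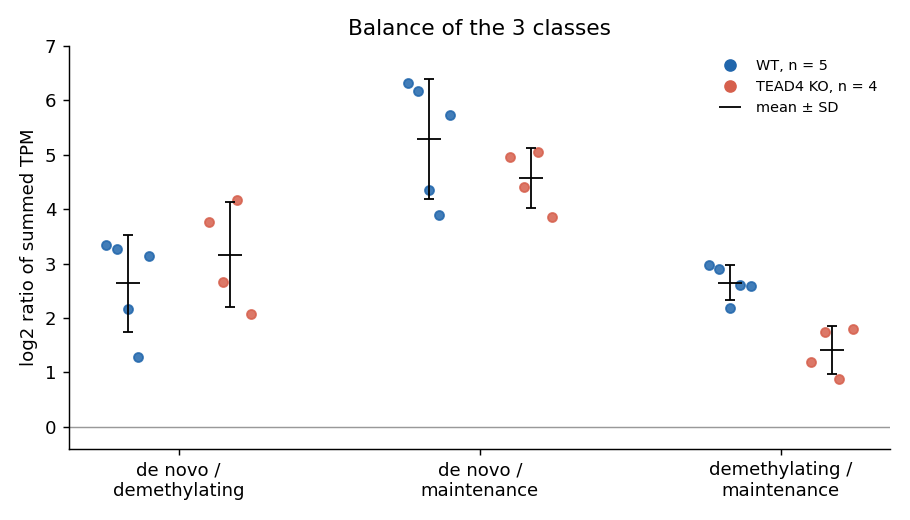
Log2 ratio of the summed TPM (vertical axis) of de novo to demethylating, de novo to maintenance and demethylating to maintenance genes, 1 point per blastocyst, with WT in blue, KO in red and black bars for the mean ± SD. WT and KO points overlap in the ratios of de novo genes, and in the ratio of demethylating to maintenance genes all KO points (0.88 to 1.79) are below all WT points (2.18 to 2.98).

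The ratios of the de novo class overlapped between genotypes. The log2 of de novo over demethylating transcripts averaged 2.64 ± 0.89 (SD, n = 5) for WT and 3.17 ± 0.97 (SD, n = 4) for KO embryos, and 2 KO embryos, TE_1 and TE_3, were above all WT embryos. The log2 of de novo over maintenance transcripts averaged 5.29 ± 1.10 (SD, n = 5) for WT and 4.57 ± 0.55 (SD, n = 4) for KO embryos, and 1 KO embryo was below all WT embryos. The first difference, 0.53, was smaller than the SD of either genotype, and the second, −0.72, was smaller than the SD of WT but larger than that of KO. With 1 embryo left out they lay between 0.19 (without WT_4) and 0.89 (without TE_4) and between −1.07 (without WT_4) and −0.46 (without WT_1).

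The 10 genes were also compared with each other across the 9 embryos, as 45 pairs. None of the 45 pairs passed an adjusted p-value of 0.05, and 4 had an unadjusted p under 0.05 for Pearson's r. The highest rho was that of *DNMT3A* with *TET1*, with r = 0.752 and rho = 0.833 (exact permutation tests, p = 0.0196 and 0.00827, adjusted over 45 pairs p = 0.509 and 0.242), and r was 0.660 without WT_1 and WT_4. *DNMT1* and *TET3* had r = −0.706 and rho = −0.633 (exact permutation tests, adjusted over 45 pairs p = 0.509 and 0.570), the only negative one of the 4. *DNMT1* and *TRIM28* had r = 0.663 and rho = 0.633 (exact permutation tests, adjusted over 45 pairs p = 0.509 and 0.570). The r of 0.764 for *UHRF1* with *TET2* rested on TE_2 and TE_4, without which it was −0.210.

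Among the 7694 genes with a symbol and a mean of at least 5 TPM, the genes whose pattern over the 9 embryos was most like that of each member were named by the highest Pearson's r, as a description without a test. For *DNMT3A* they were *PRSS23* (r = 0.979), a serine protease gene, and *UGCG* (r = 0.972), which codes for the enzyme that makes glucosylceramide. For *TET1* they were *ZDHHC20* (r = 0.991), a palmitoyltransferase gene, and *GALNT3* (r = 0.983), whose product starts O-linked glycans. For *DNMT1* they were *NOL11* (r = 0.978), a gene of ribosome biogenesis, and *PSMC1* (r = 0.973), a proteasome subunit gene. For *TDG* they were *TRIM37* (r = 0.956) and *INTS13* (r = 0.954), and for *TRIM28* they were *CSNK1G2* (r = 0.969) and *MRI1* (r = 0.941). *DNMT3B* was most like *EPPK1* (r = 0.912) and *MPPE1* (r = 0.897), and *UHRF1* most like *TBC1D1* (r = 0.939) and *ZNF688* (r = 0.936). For the genes under 1 TPM, the likeness rests on values close to 0: *DNMT3L* with *TUBA4A* (r = 0.965) and *CT83* (r = 0.942), *TET2* with *CTDP1* (r = 0.947) and *ZNF839* (r = 0.940), and *TET3* with *PXMP2* (r = 0.895) and *GALK2* (r = 0.889).

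Other genes of the pathway were taken from 7 lists with 59 genes, of which 56 were tested. None of the 56 passed the threshold in either direction, and 1 had an unadjusted p under 0.05, beside 5.90% of all genes. Mean log2(TPM + 1) was lower in KO for 41 of them and higher for 15, with a median log2 fold change of −0.13, beside 55.8% lower and a median of −0.046 over all genes tested. The number with a lower mean was 29 without TE_1, 32 without TE_3 or after quantile normalization, and 45 without TE_2, so the counts per list also rest on single embryos. Higher and lower in what follows refer to these means. The genes named are the 2 with the smallest p in each list. The cofactors of the TET enzymes were lower in 6 of 6 genes tested, with log2 fold changes from −0.74 to −0.0083 and a median of −0.44. None of these genes was called. They include *IDH2* and *IDH1*, whose enzymes make the 2-oxoglutarate that TET enzymes need. The average of *IDH2* was 39.8 ± 13.8 TPM (SD, n = 5) for WT embryos and 22.7 ± 5.26 TPM (SD, n = 4) for KO embryos (limma, log2 fold change −0.74 with standard error 0.31, adjusted p = 0.797). *IDH1* was at 229 and 159 TPM on average (limma, log2 fold change −0.58 with standard error 0.28, adjusted p = 0.846).

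The chromatin guides of de novo methylation, which include the histone H3 lysine 36 methyltransferases *NSD1* and *SETD2*, were lower in 6 of 6 genes. Their log2 fold changes ran from −0.45 to −0.0048, with a median of −0.13. The average of *NSD1* was 3.60 ± 0.546 TPM (SD, n = 5) for WT embryos and 2.42 ± 0.796 TPM (SD, n = 4) for KO embryos (limma, log2 fold change −0.45 with standard error 0.28, adjusted p = 0.905), and *SETD2* averaged 2.92 and 2.20 TPM. Of the maintenance cofactors, 6 of 7 were lower, with a median of −0.11. *CDCA7*, which recruits the remodeller HELLS, ranged over 3.10 to 23.9 TPM in WT and over 0.645 to 27.6 TPM in KO, and *LIG1*, the ligase that joins Okazaki fragments, averaged 76.1 and 100.3 TPM. The partners in imprint protection were lower in 5 of 8 genes, with a median of −0.22. *ZFP57* averaged 8.73 and 7.16 TPM, and *CBX3*, which codes for heterochromatin protein 1 gamma, 228 and 173 TPM.

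Of the methyl-CpG readers, 4 of 7 were higher, with a median of 0.016. *ZBTB38* ranged over 0.142 to 0.402 TPM in WT and over 0.252 to 1.80 TPM in KO (limma, log2 fold change 0.48 with standard error 0.22, adjusted p = 0.836), a difference that was 0.26 without TE_3 and 1.12 with a pseudocount of 0.1 TPM. *MBD2* averaged 7.49 and 5.61 TPM. In base excision and deamination, 7 of 12 genes were lower, with a median of −0.072. *GADD45A*, a stress-induced gene linked to active demethylation, averaged 92.4 ± 45.1 TPM (SD, n = 5) for WT embryos and 140 ± 48.5 TPM (SD, n = 4) for KO embryos (limma, log2 fold change 0.64 with standard error 0.33, adjusted p = 0.869), and the uracil glycosylase gene *SMUG1* averaged 11.03 and 7.81 TPM. In the supply of the methyl donor S-adenosylmethionine, 8 of 10 genes were lower, with a median of −0.16. *AHCY*, which clears S-adenosylhomocysteine, averaged 110 and 150 TPM, and *MTR*, the methionine synthase gene, 1.86 and 1.23 TPM.

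A list of 12 germline genes, which promoter methylation is known to keep silent in somatic cells, was looked up as a readout, and 10 of them were tested. Of these, 8 had a higher and 2 a lower mean of log2(TPM + 1) in KO, with a median log2 fold change of 0.14. TE_2 held the highest value of the 9 embryos for *BRDT* (76.5 TPM), *SLC25A31* (13.6 TPM), *MAEL* (116 TPM) and *HORMAD1* (2.49 TPM). The higher means of these genes in KO rest on this 1 embryo, and so does the count. Over all genes tested, 55.8% were lower, with a median of −0.046. In the list, 0 passed the threshold or an unadjusted p under 0.05 in limma, beside 5.90% of all genes at that p. *DAZL* was listed at 0 in 2 libraries and reached 1.42 TPM among WT and 5.01 TPM among KO embryos, and *STK31* averaged 1.501 and 0.846 TPM. Not all of the list was silent: *SYCP3* averaged 208 TPM among WT and 179 TPM among KO embryos and *MAEL* 55.7 and 65.4 TPM, both named after their values were seen. *SYCP3* is counted among the 8 with a higher mean on the log2 scale, with a log2 fold change of 0.044. DNA methylation itself is not analysed here.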

How the data were processed

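RNA-seq libraries of 9 single D8 bovine blastocysts (5 WT, 4 *TEAD4* KO) were analysed. The deposited table holds TPM for 21512 genes, which the authors computed from pseudoaligned, quality-checked reads. The submitters' processing notes name FastQC, fastp and kallisto. The genome build, the annotation and how transcripts were combined into genes are not given in the sources used here, and no coordinates are printed. The labels describe another extraction, library kit and sequencer than the paper's methods. All 9 columns were used and assigned to genotype by name. TPM keeps no read numbers, so the depth of each library is unknown, and the paper gives reads only as a range over all samples. The count test of the paper was not run.

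Genes with a median above 0.1 TPM were tested with limma 3.58.1 (R 4.3.3; lmFit, eBayes with trend) on log2(TPM + 1), after a test on simulated data. Calls needed an adjusted p under 0.05 with a log2 fold change beyond 1 in either direction. Exact permutation tests used scipy 1.17.1. Where nothing says that embryos came from separate batches of oocytes, p-values measure the spread between these embryos. The members and lists were chosen with earlier results of these data known. Named beside the 10 genes are *TEAD4*, the 2 genes with the smallest p in each pathway list and the 2 most correlated with each member. All 10 symbols are in the RefSeq annotation of ARS-UCD2.0. *UNG* is not analysed here. *CXXC4*, *BHMT*, *SYCP1* and *TAF7L* were below the filter. Markers of oocyte transcripts (12 genes) summed to 33.6 to 117 TPM in WT and 27.3 to 122 TPM in KO. The alternatives tried were array weights, robust eBayes, no trend, quantile normalization, size factors (median of ratios), a pseudocount of 0.1 TPM, a median above 1 TPM or no filter, other definitions of the classes, and leaving out single embryos. Relations with marker lists, and their alternatives, were added after seeing the data.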

Additional observations from a re-analysis of the deposited data

Results flagged for a closer look

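A gap test for single outlying embryos (Dixon's test at 95%) was run on 50 groups of 4 or 5 values, those of the 10 genes and of the 15 class measures in each genotype, and chance gives about 1 flag in 20 groups. *DNMT3B* in WT_5 stood apart from the other WT embryos, at 42.1 TPM. *TET2* in TE_2 stood apart from the other KO embryos, at 1.22 TPM. The ratio of *DNMT1* to *UHRF1* was 1.10 in WT_3, apart from 0.48 to 0.66 in the other WT embryos, and 3.84 in TE_4, apart from 0.32 to 0.79 in the other KO embryos.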

How the results depend on the processing

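With any of the 17 alternative fits, 0 of the 10 genes were called, the smallest adjusted p of a member being 0.476 (*TDG* without TE_2), and 0 of the pathway genes were. Of 167 alternative values of the members' log2 fold changes, 153 kept their direction. Those that changed it were *UHRF1* (−0.0061 with array weights), *DNMT3L* (0.015 after quantile normalization, 0.022 with array weights), *TET2* (−0.087 with a pseudocount of 0.1 TPM, −0.024 with array weights) and *TET3* (0.063 after quantile normalization). With embryos left out in turn, the range was −0.18 to 0.20 for *UHRF1*, −0.15 to 0.029 for *DNMT3L*, −0.84 to 0.081 for *TET1*, −0.19 to 0.19 for *TET2*, −0.12 to 0.0029 for *TET3* and −0.36 to 0.020 for *TRIM28*. Over all genes, the 3 calls became 8 with a pseudocount of 0.1 TPM or a median above 1 TPM, 5 with size factors (4 of them higher in KO, against 2 of 3) or without trend, 6 after quantile normalization or with robust eBayes, and 0 to 10 with an embryo left out. It was 10 without TE_3 and 0 in limma without WT_3, WT_4, TE_1, TE_2 or TE_4, where 824 to 1235 genes had an unadjusted p under 0.05, and the cause was not tested. The log2 of demethylating over maintenance transcripts differed by −0.59 with means of log2 values in place of sums. With a median above 1 TPM, *DNMT3L*, *TET2* and *TET3* could not be fitted. Size factors moved the median of all genes by less than 0.1 in log2. No paired analysis was possible because the labels number the embryos without repeats and each is a separate embryo.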
